A study of Mus musculus with 24 samples.

Results

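A set of 8 genes of the glucocorticoid response was followed through adipogenesis of 3T3-L1 cells: the receptor gene Nr3c1 and the 7 genes Fkbp5, Tsc22d3, Per1, Zbtb16, Sgk1, Errfi1 and Pdk4. They were chosen by name, as textbook genes of the pathway, with earlier results of these data known. Where a gene has several annotated 3′ UTR entries, the one with the most total reads on average over the 24 libraries stands for it. These 8 genes hold 16 of the 91830 entries, and all 8 were among the 13331 genes with enough reads to be tested in total reads and among the 6434 genes tested in labelled reads. 3T3-L1 is a mouse fibroblast line that turns into lipid-filled adipocytes in culture. Cells were kept in DMSO, the solvent control, or in 0.5 μM ML-792, an inhibitor of the enzyme that activates SUMO, a small protein attached to many nuclear proteins. Each treatment was harvested at days −2, 1, 3 and 7, with replicates A, B and C, which gives 8 conditions of 3 libraries. Day −2 precedes adipogenic induction. The first harvest after induction came at day 1, so changes within the first hours were not sampled, which the paper names as a limit. The induction medium held dexamethasone, a synthetic glucocorticoid, with 3-isobutyl-1-methylxanthine, which raises cAMP, and insulin. At day 3 it was replaced by medium with insulin as the only one of these agents. Per the methods, cells before induction were kept in calf serum, and both later media held fetal bovine serum. No library of cells given dexamethasone alone is among those analysed. The effects of the 3 agents, of the change of serum and of differentiation therefore cannot be told apart. The labels do not give how long the day −2 cells had been in ML-792, nor on which side of the medium change the day 3 cells were taken.

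Glucocorticoids act through the glucocorticoid receptor, a transcription factor that waits in the cytoplasm with chaperones and moves to the nucleus once it binds hormone. There it activates genes near its DNA elements and lowers many inflammatory genes. Among its best known targets are Fkbp5, a co-chaperone that dampens the receptor's hormone binding, Tsc22d3, also called GILZ, an anti-inflammatory leucine zipper protein, and Zbtb16, also called PLZF, a zinc finger transcription factor. Dexamethasone is a standard part of the mixture that starts adipogenesis in this line.

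The files hold 2 read counts for each entry. Total reads are the QuantSeq reads of its 3′ end, which follow the amount of mRNA. Labelled reads are those of them with at least 1 T-to-C conversion, which mark RNA made while the cells took up 100 μM 4-thiouridine for 45 min before harvest (SLAMseq). Total reads ran from 13554718 to 27013352 per library (median 17428698) and labelled reads from 115709 to 820046 (median 185851), so labelled values carry more counting error. A normalised count is a count divided by the effective size of its library and multiplied by the mean effective size. The labelled share of a library was 3.17% ± 0.485 (SD, n = 3) in DMSO at day −2 and 1.03% ± 0.0869 at day 7. Summed normalised counts of 9 adipocyte markers went from between 2007 and 2961 per library in DMSO at day −2 to between 351805 and 391225 at day 7, while 8 pre-adipocyte or fibroblast markers went from between 330176 and 375254 to between 27488 and 40124. The 4 macrophage markers summed to at most 146 in any library, with Ptprc at 0 in all 24 libraries, and the 3 endothelial markers to at most 19.6. In such bulk cultures fewer cells with a transcript and less transcript per cell cannot be told apart. The methods call the replicates biological without saying how their cultures were separated, so p-values measure the spread between these samples, which may be technical.

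Promoter windows of 300 bases from RefSeq (mouse build GRCm38.p6) were matched to 6 of the 8 genes, all but Nr3c1 and Zbtb16, with 15 windows in all. They were searched on both strands for the glucocorticoid response element (the arms GNACA and TGTNC with 3 bases between them), for its single arm AGAACA and for the cAMP response element TGACGTCA. The full element was found in 1 of the 15 windows, a start site of Sgk1, and in 0.475% of the 32851 windows of all genes. The single arm lay in 4 of the 15 windows, those of Tsc22d3 and Sgk1, and in 19% of all windows, and 2 of its matches at Sgk1 overlap the full element. The cAMP element was found at a start site of Errfi1 and in 1.79% of all windows. Printed here is 1 match for each gene that had any, Sgk1, Tsc22d3 and Errfi1, with the matched letters in capitals:
Sgk1, chr10:21993694-21993722, plus strand, full element: tgcggaaaGAACAGAATGTTCtcggagat
Tsc22d3, chrX:140600694-140600715, minus strand, single arm in reverse complement: attcgacaTGTTCTaagttctg
Errfi1, chr4:150855011-150855034, plus strand, cAMP element: gcgggcgtTGACGTCAcgttgtcg
Fkbp5, Per1 and Pdk4 had none of these letters in their windows. The windows lie at annotated start sites, so sequence further upstream or further into the genes was not searched. A match is a description of the letters and says nothing of binding.

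The first comparison asked how far each gene had moved from day −2 once induction had begun, in the DMSO cells. At day 1, Fkbp5, Tsc22d3 and Zbtb16 were all higher and Sgk1 was lower, and the receptor gene was called lower at days 3 and 7. Of the 8 genes 4 passed the test at day 1, 3 higher and 1 lower, against 16.8% of all tested genes (6.99% higher and 9.86% lower). At day 3 the 4 that passed were 3 higher and 1 lower against 36% (16.6% and 19.4%), and at day 7 again 3 higher and 1 lower against 38.3% (18.9% and 19.4%). Over any of the 3 days 5 of the 8 passed against 49.6%, so the number of genes that moved was close to that of all genes. These tests used edgeR's quasi-likelihood model over the 12 DMSO libraries, with an adjusted p under 0.01 as the threshold.

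Fkbp5 (chr17:28398753-28401046, mm10) had 900, 1110 and 995 normalised total reads in DMSO replicates A, B and C at day −2 and 10584, 14571 and 10352 at day 1. It reached 13644, 16135 and 16017 at day 3 and 21141, 21812 and 21471 at day 7. Every library after induction lay far above the 3 before it. The fold change from day −2 was 11.8 at day 1 (log2 3.56 ± 0.19 SE, edgeR adjusted p = 1.2e-08), 15.2 at day 3 (log2 3.93) and 21.4 at day 7 (log2 4.42, edgeR adjusted p = 1.9e-10). The 3 day 7 libraries lay above the 3 of day 3 by log2 0.49 ± 0.17, which did not pass the threshold (edgeR adjusted p = 0.067), and day 7 cells had been in medium without dexamethasone.

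Zbtb16 (chr9:48651797-48657141) was scarce before induction, with 218, 136 and 213 normalised total reads. At day 1 it had 5536, 3820 and 5188, at day 3 5982, 4015 and 5574, and at day 7 8073, 6488 and 7359. Replicate B was the lowest of its group at each day, yet all libraries after induction lay above all before. The fold change was 25.6 at day 1 (log2 4.68 ± 0.25, edgeR adjusted p = 1.2e-08), 27.4 at day 3 and 38.6 at day 7 (log2 5.27 ± 0.26, edgeR adjusted p = 4.5e-10). Days 3 and 7 did not differ past the threshold (log2 0.49 ± 0.22, edgeR adjusted p = 0.15). A shorter entry of the gene, with a mean of 960 against 5207 reads, was called at the same days. It lies within the longer entry, so it is not an independent measure.

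Tsc22d3 (chrX:140539528-140541107) followed another course. Its normalised total reads were 1033, 886 and 1135 at day −2 and 7666, 8107 and 7951 at day 1. They stood at 2445, 2337 and 3254 at day 3 and at 5053, 5184 and 5970 at day 7. The 4 days did not overlap, and the order was day 1, day 7, day 3 and day −2. The fold change from day −2 was 7.77 at day 1 (log2 2.96 ± 0.18, edgeR adjusted p = 3.8e-08), 2.63 at day 3 and 5.31 at day 7. Between days 1 and 3 the gene fell by log2 1.56 ± 0.17 (edgeR adjusted p = 5.7e-06), and between days 3 and 7 it rose by log2 1.01 ± 0.17 (edgeR adjusted p = 0.00075). The second rise lost its call without replicate A (log2 1.00, edgeR adjusted p = 0.069) and without replicate C (log2 1.10, 0.012). Between days 3 and 1, 2 of the 8 genes passed the test, Tsc22d3 lower and Sgk1 higher, against 23.2% of all genes (11.9% lower and 11.3% higher), and between days 7 and 3 Tsc22d3 alone was higher, against 10.9% (6.54% higher).

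Sgk1 (chr10:21998828-21999903), a kinase that acts on ion channels and on insulin signalling, is counted as a gene induced by glucocorticoids. At day 1, the first harvest after induction, its total reads were lower than at day −2. They were 2193, 2509 and 2664 at day −2 and 685, 927 and 854 at day 1, with no overlap. The day 1 level was 2.99-fold lower (log2 −1.58 ± 0.19, edgeR adjusted p = 2.4e-05). It rose again by log2 1.15 ± 0.19 between days 1 and 3 (edgeR adjusted p = 0.00025), which without replicate A or C misses the threshold (0.012 and 0.014). The day 3 libraries, at 1463, 1914 and 2115, were not called against day −2 (log2 −0.42, edgeR adjusted p = 0.083), and at day 7 the range from 1796 to 2426 overlapped that of day −2.

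Nr3c1, which encodes the glucocorticoid receptor, had 1678, 2081 and 1601 normalised total reads at day −2 and 1023, 1382 and 1069 at day 1. It went on to 866, 954 and 520 at day 3 and 912, 911 and 956 at day 7. All libraries after induction lay below all those of day −2. The difference at day 1 did not pass the threshold (log2 −0.63 ± 0.21, edgeR adjusted p = 0.046). The gene was 2.29-fold lower at day 3 (log2 −1.20 ± 0.22, edgeR adjusted p = 0.00033) and 1.93-fold lower at day 7 (log2 −0.95 ± 0.21, edgeR adjusted p = 0.002). Without replicate A neither was called (0.011 and 0.043).

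The other 3 genes were not called in DMSO in this fit. Errfi1 (chr4:150867503-150868889), a feedback inhibitor of the EGF receptor, had 2642, 2279 and 2035 normalised total reads at day −2 and 3080, 6023 and 3403 at day 1. The day 1 libraries lay above those of day −2, with replicate B far above the other two, and the difference just missed the threshold (log2 0.85 ± 0.22, edgeR adjusted p = 0.011), while DESeq2 called it (adjusted p = 0.0017). Pdk4 (chr6:5483351-5485448), a kinase that shuts pyruvate off from mitochondrial oxidation, was low throughout, from 54.2 to 292 normalised reads over the 12 libraries. Its 211, 292 and 167 reads at day 1 overlapped the 85.9, 180 and 62.2 of day −2 (log2 1.03 ± 0.43, edgeR adjusted p = 0.11). Per1 (chr11:69109360-69109965), a component of the circadian clock, ranged from 596 to 1218 at day −2 and from 1068 to 1538 at day 1, and its days overlapped. Over its 10 comparisons with day −2 and between treatments the log2 differences ran from −0.07 to 0.60 with standard errors of 0.23 to 0.29, and the lowest edgeR adjusted p was 0.12. Replicate B was the lowest of the 3 for Per1 in all 4 DMSO groups.

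**Figure D1:**
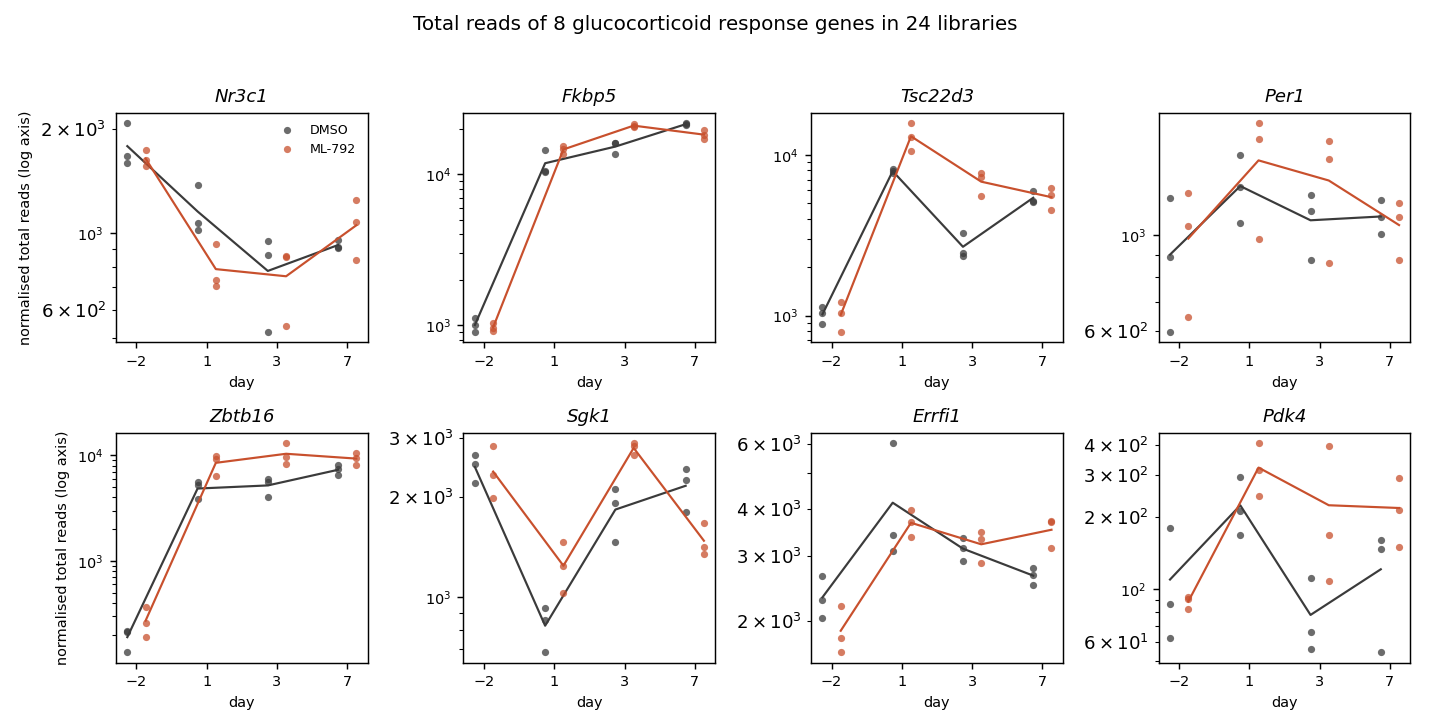
Normalised total reads (y axis, log scale, its own range for each gene) of the 8 genes by day (x axis), with a point for each library of DMSO and of ML-792 cells and a line through the means of the 3 replicates. Fkbp5 and Zbtb16 rise at day 1 and stay up, Tsc22d3 peaks at day 1 and dips at day 3, Sgk1 dips at day 1, and Per1 stays between 596 and 1820.

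Cells in ML-792 went through the same comparison. Of the 8 genes 7 passed the test at day 1 (5 higher and 2 lower), 5 at day 3 and 5 at day 7 (4 higher and 1 lower each), against 24.3%, 41.1% and 40.7% of all genes (10.6%, 20.3% and 20.3% higher, 13.7%, 20.8% and 20.4% lower). Over any of the 3 days 7 of 8 passed against 55.5%. Fkbp5 was higher by log2 3.92, 4.44 and 4.24 at days 1, 3 and 7, Zbtb16 by 4.98, 5.26 and 5.11, and Tsc22d3 by 3.69, 2.75 and 2.43. Errfi1 was called in these cells at each day (log2 0.97 ± 0.15, edgeR adjusted p = 0.00023 at day 1, then 0.77 and 0.90), and Pdk4 at day 1 (log2 1.86 ± 0.40, edgeR adjusted p = 0.0028). Sgk1 fell by log2 0.94 ± 0.17 at day 1 (edgeR adjusted p = 0.00075), and Nr3c1 fell by 1.06 ± 0.20 (edgeR adjusted p = 0.001). Without replicate C the calls of Errfi1, Nr3c1 and Sgk1 were lost at all days, which leaves 4 of the 8 genes. Without replicate A 5 were left, and Pdk4 lost its call without A (0.02) and without B (0.083).

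Whether ML-792 shifted these genes was asked at each day in a fit of all 24 libraries, with an adjusted p under 0.1 as the threshold. Tsc22d3, Zbtb16 and Sgk1 were higher with ML-792 at days 1 and 3, joined at day 3 by Fkbp5 and Pdk4, and Sgk1 was lower at day 7. At day −2 none of the 8 genes was called, as none of all tested genes was (0%), and 1 of the 8 had an unadjusted edgeR p under 0.05. At day 1, 3 of the 8 were called, all higher, against 8.03% of all genes (3.72% higher). At day 3 it was 5, all higher, against 15.4% (8.42% higher), and at day 7 it was 1, lower, against 11.6% (5.58% lower). Over the 4 days 5 of the 8 genes passed against 24.8%. These calls rest on 3 libraries a side: without replicate A the count over the 4 days was 1, without replicate C it was 1, and in both cases the gene left was Tsc22d3 at day 3.

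Tsc22d3 showed the widest gap among the genes whose groups did not overlap. At day 1 the ML-792 libraries had 12839, 10540 and 15716 normalised total reads against 7666, 8107 and 7951 in DMSO. At day 3 they had 7239, 5519 and 7651 against 2445, 2337 and 3254, and the lowest ML-792 library lay well above the highest of DMSO. The ratio was 1.65 at day 1 (log2 0.72 ± 0.19, edgeR adjusted p = 0.021) and 2.54 at day 3 (log2 1.34 ± 0.19, edgeR adjusted p = 2.1e-05). The day 1 call was lost without replicate A (0.39) or C (0.34), whereas day 3 was called without each replicate (highest adjusted p 0.026). At day 7 the treatments overlapped, at 5631, 4526 and 6182 against 5053, 5184 and 5970.

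Zbtb16 had 9898, 6337 and 9274 normalised total reads with ML-792 at day 1 and 13004, 8341 and 9752 at day 3. All 3 lay above the DMSO libraries of the same day, and replicate B was lowest in both treatments. The ratio was 1.75 at day 1 (log2 0.81 ± 0.24, edgeR adjusted p = 0.049) and 2.00 at day 3 (log2 1.00 ± 0.24, edgeR adjusted p = 0.0068). At day 7 the 10501, 8106 and 9368 reads still lay above DMSO, but the difference was not called (log2 0.35 ± 0.24, edgeR adjusted p = 0.49). At day −2 the log2 difference was 0.51 ± 0.25 with overlapping libraries (edgeR adjusted p = 1).

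Fkbp5 with ML-792 reached 20817, 20576 and 21660 normalised total reads at day 3, near the DMSO level of day 7. The ratio to DMSO at day 3 was 1.38 (log2 0.46 ± 0.14, edgeR adjusted p = 0.037). At day 1 the libraries overlapped (log2 0.30 ± 0.14, edgeR adjusted p = 0.3). At day 7 the order was the other way, with 19552, 18170 and 17231 below all 3 DMSO libraries, but that was not called (log2 −0.23 ± 0.14, edgeR adjusted p = 0.43).

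Sgk1 changed side. With ML-792 it had 1240, 1027 and 1463 normalised total reads at day 1 and 2846, 2662 and 2889 at day 3, all above the DMSO libraries. At day 7 the 1411, 1351 and 1669 reads all lay below the DMSO libraries. The log2 difference was 0.60 ± 0.18 at day 1 (edgeR adjusted p = 0.052), 0.61 ± 0.18 at day 3 (0.027) and −0.55 ± 0.18 at day 7 (0.065). Pdk4 at day 3 was called at a ratio of 2.87 (log2 1.52 ± 0.46, edgeR adjusted p = 0.039), yet its 108, 168 and 395 reads overlapped the 55.8, 111 and 66.0 of DMSO, and replicate C held most of the difference: without it the log2 difference was 0.72. The receptor gene Nr3c1 at day 1 had 704, 932 and 732 reads with ML-792, below the 3 DMSO libraries, with no call (log2 −0.55 ± 0.21, edgeR adjusted p = 0.17). Errfi1 at day 7 lay above DMSO in each library, with no call either (log2 0.41 ± 0.19, edgeR adjusted p = 0.25).

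A test of the interaction asked whether the course over the 4 days differed between treatments. It was called for Tsc22d3 (edgeR adjusted p = 0.0024), Sgk1 (0.0062) and Fkbp5 (0.083), 3 of the 8 genes against 11.9% of all genes, and not for Zbtb16 (0.64). The rise of Tsc22d3 from day −2 to day 3 was larger with ML-792 by log2 1.36 (edgeR adjusted p = 0.0026), the single step called among these genes, against 6.03% of all genes (3.46% in that direction). Without replicate A none of the 3 interactions was called (lowest adjusted p 0.26), and without replicate C that of Tsc22d3 alone was (0.097). The single step of Tsc22d3 was lost without replicate A (0.21). Markers of cell type also differed between treatments. At day 3 the fibroblast markers summed to between 42815 and 49992 with ML-792 against 30398 to 36621 in DMSO. Of the 8 markers 5 lay higher in every ML-792 library, Ly6a (mean 4274 against 361) and Pdgfra (2651 against 951) among them, and 1, Col3a1, lower in each. The adipocyte sums overlapped at day 3, with 1 of 9 markers higher in every ML-792 library and 3 lower. At day 7 the adipocyte sums were 540217 to 595885 with ML-792 against 351805 to 391225, with 3 markers higher in every library and 2 lower, Slc2a4 (1138 against 3084) and Retn (18750 against 22177). The fibroblast sums were 47007 to 65480 against 27488 to 40124, with 4 markers higher in every library and 1, Dlk1 (1483 against 3109), lower. The part of these markers in the differences of the 8 genes was not tested.

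**Figure D2:**
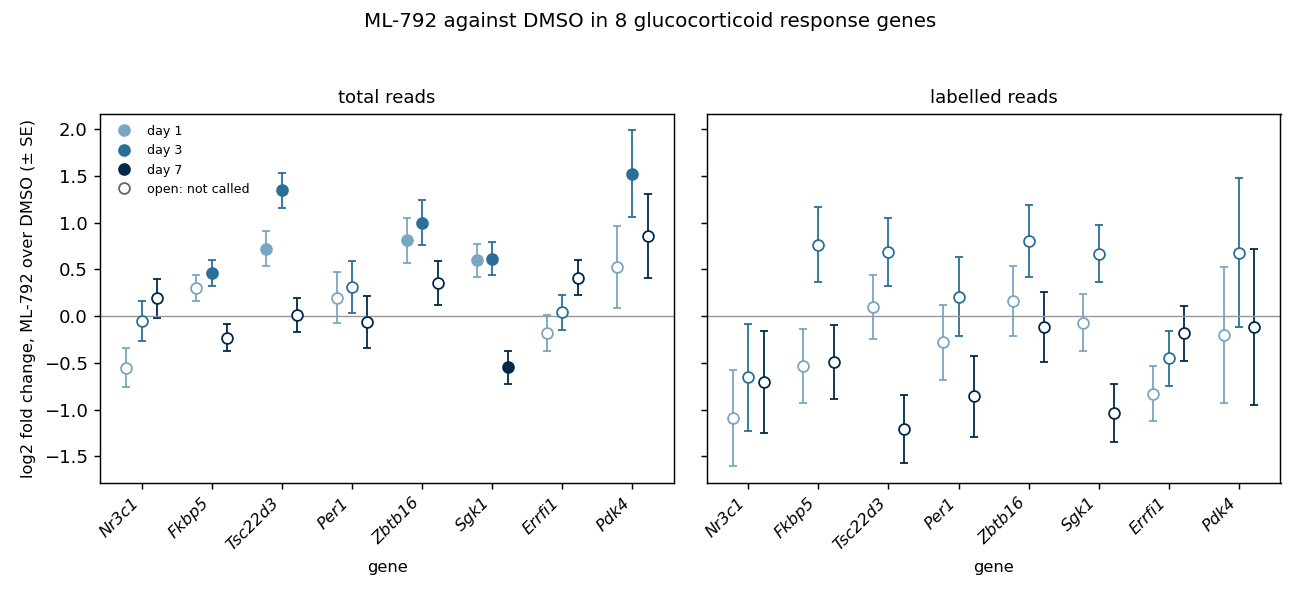
Log2 fold change of ML-792 over DMSO (y axis, bars of 1 SE) for each of the 8 genes (x axis) at days 1, 3 and 7, in total reads (left) and in labelled reads (right), with filled points for an adjusted p under 0.1. In total reads Tsc22d3 stands highest among the genes with groups apart at day 3, at 1.34, and Sgk1 lies at 0.61 at day 3 and at −0.55 at day 7.

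Labelled reads tell what was being made at the time of harvest. In DMSO cells labelled Fkbp5, Tsc22d3 and Zbtb16 were higher after induction, and labelled Sgk1, Errfi1, Per1 and Nr3c1 were lower. These changes must be read against the whole library: the median log2 change of all tested genes stood at −1.20 on day 1, −1.64 on day 3 and −1.47 on day 7, and the labelled share of the libraries was highest before induction. Scaled by labelled instead of total reads, Errfi1, Per1 and Nr3c1 were called at no day in either treatment, and Errfi1 and Nr3c1 changed sign at day 1. On the first scale 4 of the 8 genes passed the test at day 1 (3 higher and 1 lower), 6 at day 3 (2 higher and 4 lower) and 7 at day 7 (3 higher and 4 lower), against 19.5%, 34.3% and 30% of all genes. The share of all genes called higher was 0.56%, 1.99% and 1.99%, and the share called lower 18.9%, 32.3% and 28.1%.

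Labelled Zbtb16 had 14.7, 2.68 and 11.5 normalised labelled reads at day −2, from 18, 3 and 13 raw reads, and 129, 158 and 160 at day 1. It stood at 132, 40.6 and 102 at day 3 and at 143, 144 and 182 at day 7. All 9 libraries after induction were above the 3 before, by log2 3.92 at day 1, 3.22 at day 3 and 3.99 at day 7 (edgeR adjusted p = 4.4e-09, 2.1e-07 and 1.5e-09). Labelled Fkbp5 had 30.3, 10.7 and 8.88 at day −2, 80.9, 157 and 174 at day 1, 79.9, 38.3 and 81.0 at day 3 and 160, 81.4 and 152 at day 7. Its log2 change was 3.03 at day 1 (edgeR adjusted p = 1e-06), 1.98 at day 3 (0.00042) and 2.96 at day 7 (9.1e-07). Both genes were called on either scale, though Fkbp5 at day 3 was not without replicate C (0.04).

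Labelled Tsc22d3 had 36.0, 38.5 and 43.5 normalised labelled reads at day −2 and 113, 155 and 133 at day 1. It was down to 49.2, 42.9 and 55.5 at day 3 and stood at 83.5, 118 and 136 at day 7, so that days 1 and 7 overlapped each other and lay above the other two. The rise was log2 1.76 ± 0.38 at day 1 (edgeR adjusted p = 0.00041) and 1.51 at day 7 (0.0013), and day 3 was not called on the scale of total reads but was on that of labelled reads (log2 1.74, edgeR adjusted p = 2e-04). Both calls on the scale of total reads were lost without replicate A (0.018 and 0.021) and without replicate C (0.011 and 0.034). The order of the days by their means was that of its total reads.

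Labelled Sgk1 went from 536, 408 and 547 normalised labelled reads at day −2 to 73.6, 84.7 and 61.9 at day 1 and 76.6, 89.3 and 86.8 at day 3. At day 7 it had 151, 111 and 160. The fall was log2 2.76 at day 1 (edgeR adjusted p = 1.4e-08), 2.56 at day 3 and 1.82 at day 7. Scaled by labelled reads it fell by log2 1.58 at day 1 (edgeR adjusted p = 0.00025) and by 1.10 at day 3 (0.0081) and was not called at day 7. Total Sgk1 was up again at day 3, while labelled Sgk1 at day 3 lay near its day 1 level. Labelled Errfi1 went from 696, 546 and 532 to 234, 486 and 278 at day 1 and 129, 166 and 202 at day 7, and labelled Per1 from 135, 66.2 and 184 to 49.6, 25.0 and 54.8 at day 7. On the scale of total reads the fall at day 7 was log2 1.84 for Errfi1 and 1.57 for Per1, close to the median of all genes. The calls of Per1 were lost without replicate A and without replicate C, at days 3 and 7. Labelled Nr3c1 had 58.1 to 68.4 normalised labelled reads at day −2 and 13.6 to 28.6 at day 7, a call that was lost without each of the 3 replicates. Labelled Pdk4 rested on 0 to 25 raw reads per library and was called at no day.

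**Figure D3:**
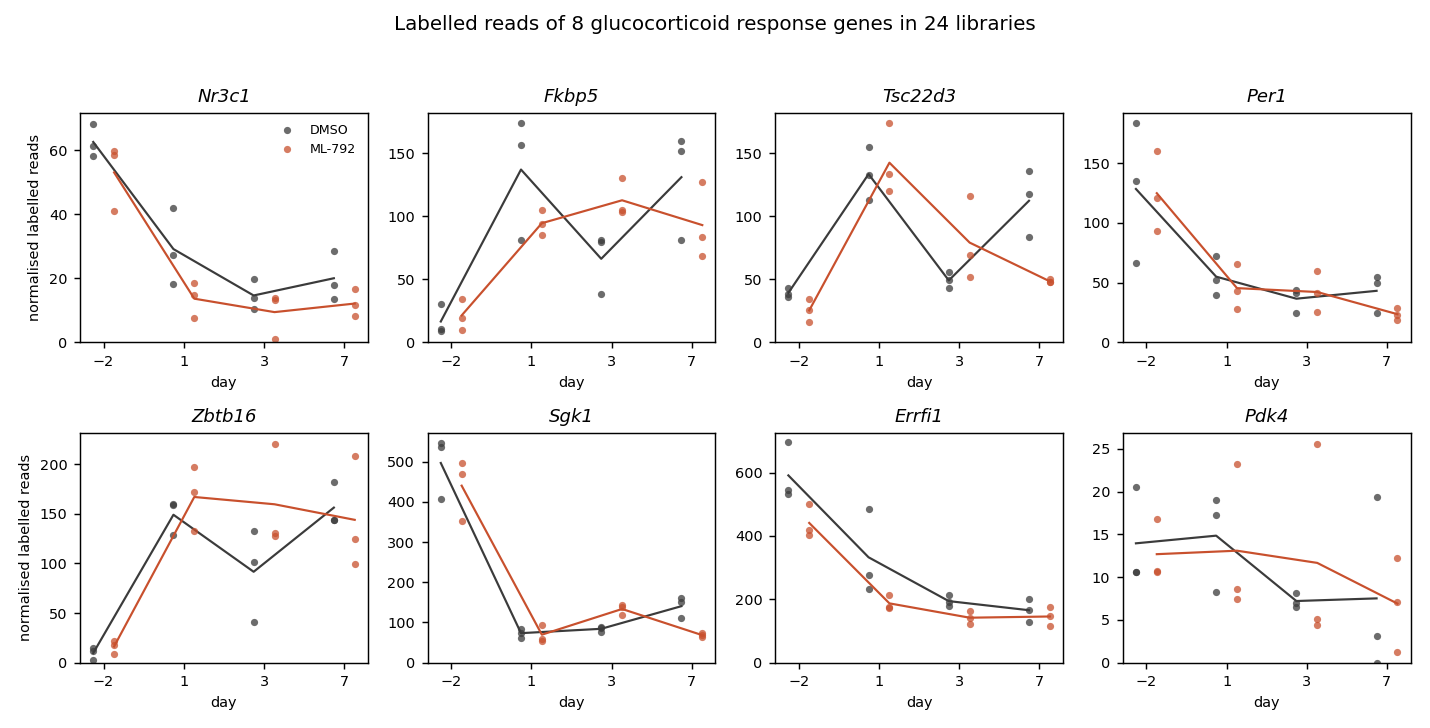
Normalised labelled reads (y axis, linear from 0, its own range for each gene) of the 8 genes by day (x axis), scaled by the factors of the total reads, with a point for each library and a line through the means of the 3 replicates. Fkbp5, Tsc22d3 and Zbtb16 are higher at day 1 than at day −2, whereas Sgk1 drops from a mean of 497 to 73.4 in DMSO.

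With ML-792, 7 of the 8 genes passed the day 1 test in labelled reads, 7 that of day 3 and 6 that of day 7, against 27.1%, 35.2% and 39.3% of all genes. Over any of the 3 days 7 of the 8 passed with ML-792 against 50.5% of all genes, and 7 in DMSO against 43.8%. Between the treatments none of the 8 was called at any day, where 2.7% of all genes were at any of the 4 days. Of the 32 edgeR tests 6 had an unadjusted p under 0.05, and DESeq2 called Errfi1, Tsc22d3 and Sgk1. The median log2 difference of all tested genes between treatments was −0.07 at day 3 and −0.37 at day 7. Labelled Tsc22d3 at day 7 had 50.0, 47.6 and 47.8 normalised labelled reads with ML-792, below the 83.5, 118 and 136 of DMSO (log2 −1.21 ± 0.36, edgeR adjusted p = 0.13), at a day when total Tsc22d3 overlapped. Labelled Sgk1 at day 7 had 73.9, 63.0 and 68.3 against 151, 111 and 160 (log2 −1.04, edgeR adjusted p = 0.13). The same gene at day 3 had 139, 118 and 144 against 76.6, 89.3 and 86.8 (log2 0.67, edgeR adjusted p = 0.44). In both genes the libraries did not overlap, and neither difference passed the threshold. Labelled Fkbp5 at day 3 had 103, 130 and 105 against 79.9, 38.3 and 81.0 (log2 0.76, edgeR adjusted p = 0.53).

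The labelled share of a gene, its labelled over its total reads, is a description with no test and was not corrected for the number of T bases of the entry. Errfi1 held 25.5% ± 1.34 labelled reads (SD, n = 3) in DMSO at day −2 and 7.94% ± 0.315 at day 1. Sgk1 held 20.4% ± 4.09 and 9.04% ± 1.75, and Per1 13.8% ± 2.32 and 4.17% ± 0.495. These 3 genes were above the share of their own library in all 24 libraries. Fkbp5 lay at the other end, at 1.74% ± 1.41 at day −2 and 0.443% ± 0.183 at day 3, above its library in 2 of 24. Divided by the share of the library, Sgk1 stood at 6.40, 7.16, 4.55 and 6.34 over the 4 days in DMSO, Errfi1 at 8.12, 6.25, 6.07 and 6.08, and Fkbp5 at 0.519, 0.912, 0.421 and 0.588. Relative to its library, Errfi1 thus changed less between day −2 and the later days than its share itself did. Fkbp5 was at its highest relative share at day 1, with replicates from 0.610 to 1.23. Tsc22d3 with ML-792 had a share of 0.905% ± 0.140 at day 7 against 2.07% ± 0.359 in DMSO. The whole libraries of that day held 0.837% with ML-792 against 1.03% in DMSO.

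**Figure D4:**
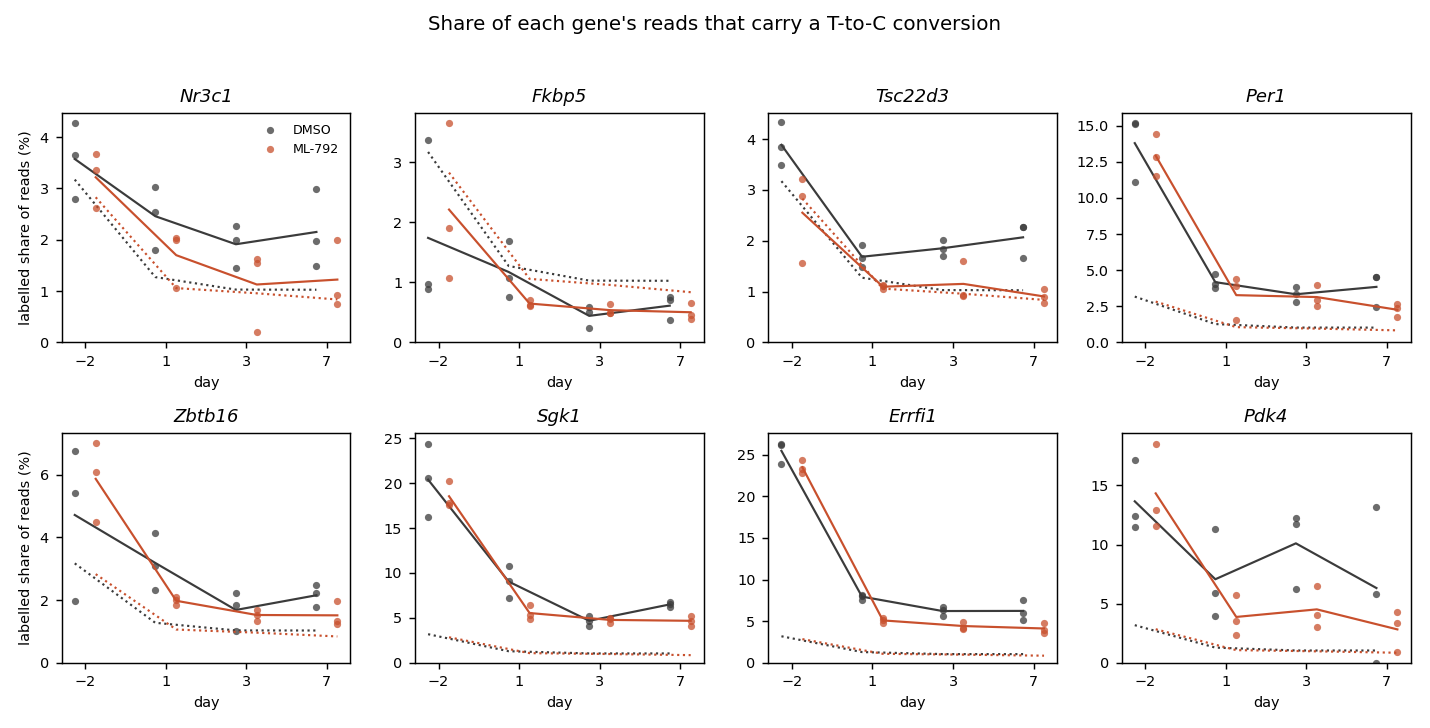
Labelled share in percent (y axis, linear from 0) of the 8 genes by day (x axis) in DMSO and ML-792 cells, with a point for each library, solid lines through the means and dotted lines for the mean share of the whole libraries. Errfi1, Sgk1 and Per1 lie above their library at each day, and Fkbp5 lies mostly below it.

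Other genes of the pathway were taken from 4 lists, which were also chosen with earlier results of these data known. They are described by counts in total reads, beside the share of all genes called in the same comparison. The 8 genes of receptor chaperones and ligand supply were all tested. In DMSO 1 was higher at day 1, 2 at day 3 and 1 at day 7, and none was lower, against 6.99%, 16.6% and 18.9% of all genes higher and 9.86%, 19.4% and 19.4% lower. Hsd11b1, the enzyme that regenerates active glucocorticoid from its inert form, was the gene called at each day and went from 59.6 normalised total reads at day −2 to 214 at day 1, 1539 at day 3 and 2313 at day 7. Stip1, a co-chaperone that links HSP70 and HSP90, was the second at day 3. Without replicate A, as without C, none of the list was called at day 1 and 1 at day 3. Of the 9 coregulators 1 was higher at day 1, namely Nrip1, a corepressor of nuclear receptors (633 to 1710 reads). At day 3, 2 were higher and 3 lower, and at day 7 2 higher and 2 lower, where 36% and 38.3% of all genes were called, so these counts lay near the background. The coactivator gene Ncoa1 was among those higher at day 3. Without replicate A or C no coregulator was called lower at either day.

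Of 29 other genes induced by glucocorticoids in other systems, 14 were higher and 4 lower at day 1 in DMSO, 17 and 4 at day 3, and 16 and 3 at day 7. Of all genes 6.99% were higher and 9.86% lower at day 1, 16.6% and 19.4% at day 3, and 18.9% and 19.4% at day 7. The 29 genes had a median log2 change of 0.87 at day 1 against 0.00 for all genes. Without replicate A the day 1 counts were 8 and 2. Fam107a, which encodes an actin-associated protein, went from 3.84 to 467 normalised total reads at day 1 and to 1675 at day 7. Lcn2, the iron-carrier protein lipocalin-2, went from 36.8 to 2813, and Glul, glutamine synthetase, from 264 to 11787 (log2 5.48 ± 0.18, edgeR adjusted p = 1.3e-10). Klf15, a transcription factor, had 1 or 2 raw reads per library at day −2 and 790 to 1043 at day 7, and Hif3a had 0 to 2 and then 153 to 193. The muscle ubiquitin ligase gene Trim63 went the other way, from 32 to 44 raw reads to at most 2 at day 1.

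Of 11 genes repressed by glucocorticoids in other systems 9 had enough reads to be tested. At day 1, 8 were lower in DMSO, and at days 3 and 7 all 9 tested were, against 9.86%, 19.4% and 19.4% of all genes. With any 1 replicate left out the counts over these days ran from 7 to 9. Their median log2 change was −2.97 at day 1 and −5.29 at day 7 against 0.00 and −0.02 for all genes. The chemokine gene Ccl2 went from 3567 to 180 normalised total reads at day 1 and to 36.4 at day 7. Ptgs2, the cyclooxygenase of inflammation, went from 2455 to 123 and to 16.8. Mmp3, a matrix protease, fell from 275 to 2.90 at day 7.

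**Figure D5:**
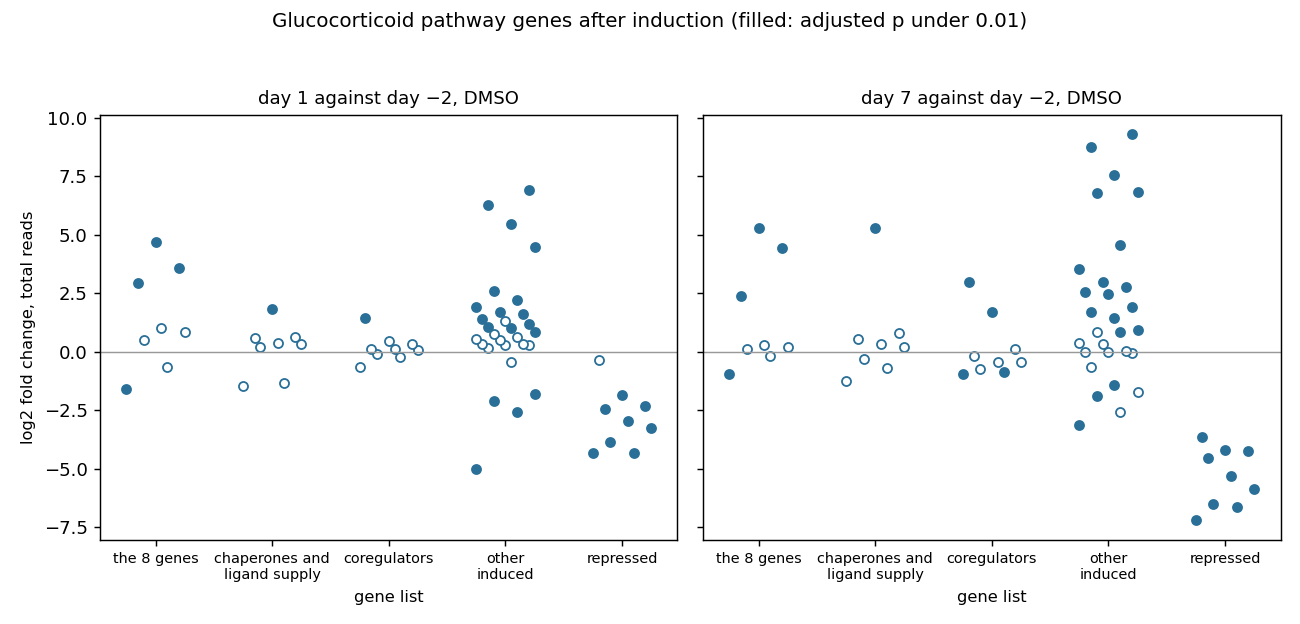
Log2 fold change in total reads against day −2 in DMSO (y axis) for the 8 genes above and the genes of the 4 pathway lists (x axis, a point for each gene), at day 1 (left) and day 7 (right), with filled points for an adjusted p under 0.01. The genes repressed by glucocorticoids lie below 0 on both days, with a median of −2.97 at day 1, and the induced genes spread to both sides.

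Between ML-792 and DMSO the 29 induced genes split, with 7 higher and 4 lower at day 1, 8 and 6 at day 3, and 4 and 6 at day 7. Of all genes 3.72% were higher and 4.31% lower at day 1, 8.42% and 6.97% at day 3, and 6.03% and 5.58% at day 7. Without replicate A the counts of the list were 5 and 2, 3 and 6, and 1 and 3. Without replicate C they were 5 and 4, 4 and 4, and 2 and 3, and without replicate B 9 and 3, 10 and 7, and 8 and 7. Fam107a stood out at day 1, with 17.0 normalised total reads on average with ML-792 against 467 in DMSO (27.2-fold lower, log2 −4.77 ± 0.35, edgeR adjusted p = 4.7e-09). It was 11.1-fold lower at day 3 (log2 −3.48). At day 7 the gap had narrowed: Fam107a had 1254, 1059 and 1299 raw reads with ML-792 against 1586, 1451 and 1507 in DMSO. The ML-792 libraries of that day were also smaller, with 14434920 to 16853760 total reads against 17192037 to 19437390. Metallothionein genes, whose proteins bind zinc and copper, changed side between days as Sgk1 did: Mt2 was 3.87-fold higher at day 1 (20693 to 80118 reads) and 5.33-fold lower at day 7 (105771 to 19859). Rhob was lower at days 1 and 3 (log2 −1.32 and −1.12), and Dusp1, the phosphatase that ends MAP kinase signals, at day 3 (log2 −1.50). Crispld2 was higher at day 1 (log2 2.37), and Sesn1 at day 7 (log2 1.28). Fbxo32 at day 3 (log2 1.26) lost its call without replicate C (0.13).

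The repressed genes were 3 higher and 1 lower with ML-792 at day 1, and 3 higher at day 3 and at day 7, against 3.72%, 8.42% and 6.03% of all genes higher and 4.31% lower at day 1. Mmp13 had 430 normalised total reads with ML-792 against 60.5 at day 1 (log2 2.83 ± 0.34, edgeR adjusted p = 4.5e-06) and 219 against 54.5 at day 3. Vcam1 was the gene lower at day 1 (log2 −0.94). Ccl2 at day 7 had 149 against 36.4 reads and Ccl7 had 241 against 60.8. These rises did not hold at all days. Mmp13 at day 7 had 11, 14 and 22 raw reads with ML-792 against 16, 5 and 18 in DMSO. Ccl7 at day 1 had 166, 162 and 226 raw reads against 288, 262 and 286. Hsd11b1 was the chaperone or ligand gene called at day 3 (3519 against 1539 reads, log2 1.19, edgeR adjusted p = 0.034), and none of that list was without replicate A or C. Of the coregulators 1 was lower at day 1, 2 were higher and 1 lower at day 3, and 1 was higher and 1 lower at day 7, where 8.03%, 15.4% and 11.6% of all genes were called. The day 1 call was lost without any of the 3 replicates, and those higher at day 3 and lower at day 7 without replicate A or C. Nrip1 was higher at day 7 (9722 against 4972 reads, log2 0.97, edgeR adjusted p = 0.00053), and Ncoa1 was lower at day 3 (919 against 1869 reads, log2 −1.02, edgeR adjusted p = 9.4e-05). At day 7 Hspa8 was called lower at 1 to 3 raw reads per library with ML-792 against 13 or 14 in DMSO and it lost its call without any of the 3 replicates. The comparisons of ML-792 with DMSO and of the days with day −2 share DMSO libraries.

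The genes with the most similar course were found for each of the 8 by Pearson correlation of log2 normalised total reads over the 24 libraries, among 13330 other genes. The libraries share treatments, days and letters, so the values are descriptions. Fkbp5 was closest to Glul (0.993), Tead4 (0.981) and Zbtb16 (0.980), and Zbtb16 to Glul (0.982), Fkbp5 (0.980) and Krt36 (0.971). Tsc22d3 was closest to Peli2 (0.945), Pum3 (0.941) and Angptl4 (0.938). Nr3c1 was closest to Ankrd13d (0.933), and Per1 to Fam63a (0.916). Fam63a was lowest in replicate B in every group, as Per1 was in DMSO, so this match also follows the letters. In DMSO at day −2 Fam63a had 624, 369 and 767 normalised total reads. Its DMSO means over the days were 587, 837, 573 and 670. The closest genes of Sgk1, Errfi1 and Pdk4 stood lower, at 0.851 for Rbm38, 0.855 for Gprc5b and 0.857 for Mpp1. Within the 8 genes, Tsc22d3 and Zbtb16 had 0.894, and Nr3c1 ran against Zbtb16 (−0.841) and Fkbp5 (−0.807).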

How the data were processed

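Total and labelled reads of 3T3-L1 libraries were taken from the deposited count tables. Per the labels and methods, the authors made 3′ QuantSeq libraries after 4-thiouridine labelling and alkylation, demultiplexed with bcl2fastq 2.17.1.14, and used SlamDunk on mm10 to count, for each 3′ UTR entry, the total reads and those with at least 1 T-to-C conversion. Values are raw counts, not normalised. Each count file also held 6 library columns that matched no sample of the labels and were not used. No unlabelled control library was analysed, so sequencing errors and single-base differences remain in the labelled reads. The printed SDs and standard errors measure the spread between replicates and do not account for these errors.

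The 8 genes and all gene lists were chosen with earlier results of these data known. Groups were taken from the labels, and day −2 was read from a title without a minus sign. Of a gene's entries the one with the most total reads was kept. Counts were normalised by TMM over the 24 libraries, labelled counts with the library sizes and factors of the total reads. Entries passing filterByExpr (min.count 10, min.total.count 15) were tested with edgeR 4.0.16 (robust quasi-likelihood, R 4.3.3, limma 3.58.1). Days were tested within the 12 libraries of a treatment, and treatments and the interaction over all 24. Correlations took the log2 of the normalised count plus 2. Benjamini-Hochberg adjustment ran over all tested entries, and background shares are over 1 entry per gene. Thresholds were an adjusted p of 0.01 for days and 0.1 for treatments. DESeq2 1.42.0, other filters and scalings, other fits, a replicate block, and leaving out each replicate were the alternatives. The scripts were tested on simulated data. Pathway genes with values in the text are, in each comparison, the 3 called genes furthest up and the 3 furthest down in log2 fold change, at days 1 and 7 in DMSO and between treatments; Hsd11b1, Stip1, Nrip1 and Ncoa1 were named after their values were seen. Figures were drawn with matplotlib 3.10.9.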

Additional observations from a re-analysis of the deposited data

Results flagged for a closer look

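The course over the 4 days differed between ML-792 and DMSO in total reads for Tsc22d3 (edgeR adjusted p = 0.0024 for the interaction), for Sgk1 (0.0062) and for Fkbp5 (0.083). For Tsc22d3 the change from day −2 to day 3 was larger with ML-792 by log2 1.36. In Sgk1 the difference between treatments was log2 0.61 at day 3 and −0.55 at day 7. None of the 3 interactions was called without replicate A (edgeR adjusted p of 0.26 to 0.72). Groups of 3 libraries are too small to look for single outlying libraries.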

How the results depend on the processing

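Fkbp5, Tsc22d3 and Zbtb16 were called higher than day −2 in total reads at each later day, in both treatments, under every alternative. The 113 comparisons of the 8 genes that were followed include some that were not called at first. Of those called, 34 lost their call without replicate A, 33 without C and 2 without B. Leaving out a replicate in turn moved the number of genes called over the DMSO days from 5 to between 4 and 6 in total reads and from 7 to between 4 and 7 in labelled reads, and over the ML-792 days in total reads from 7 to between 4 and 7. It moved the number called between treatments in total reads from 5 to between 1 and 6 and in labelled reads from 0 to between 0 and 1, and the interactions from 3 to between 0 and 3 in total reads and from 0 to between 0 and 1 in labelled reads. The lowest counts came without replicate A or C, and the cause was not tested. With another entry of Nr3c1 or Zbtb16 in place of the main one, 2 of 31 comparisons lost their call. Scaled by labelled reads, the labelled counts over the days fell to 4 in DMSO and 4 in ML-792, and the sign turned for Errfi1 at day 1 (log2 0.35 in DMSO, 0.092 in ML-792) and Nr3c1 at day 1 in DMSO (0.054). In labelled reads between treatments, DESeq2 called 3 genes (Errfi1, Tsc22d3 and Sgk1), the replicate block 3, and a fit of the 6 libraries of each day 2. In labelled interactions DESeq2 called 2 and the replicate block 2 (Tsc22d3 and Sgk1).

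Nothing in the labels ties the replicate letters together. Deviations from the condition mean in total reads correlated at 0.191 on average for same-letter libraries (from −0.173 to 0.523), over 0.1 in 68 of 84 pairs. For different letters the values were −0.094 and 20 of 168. Taking off the mean of 3 libraries largely fixes the second average from the first, so it is no separate comparison. By these deviations 22 of 24 libraries were closest to their own letter. With the replicate block 7 genes were called over the DMSO days, 8 over the ML-792 days, 7 between treatments and 4 for the interaction in total reads. The 2 genes the block added in DMSO were Errfi1 and Per1, both at day 1 (adjusted p = 0.0025 and 0.0062); DESeq2 called Errfi1 (0.0017). Fkbp5 at day 3 between treatments was lost with no filter on low counts (0.23) and in the fit of each day alone (0.14), and its interaction with no filter (0.45). No interaction exists in a fit of a single day. Labelled values rest on few reads.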
